A study of Mus musculus with 4 samples.

Results

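The genes described here are 38 mouse genes of sterol and fatty acid metabolism, picked by symbol from the 24391 genes of a table of RNA-Seq counts. They were sorted by role into 16 enzymes of sterol synthesis, 5 genes of SREBP control, 2 sterol carriers inside the cell, 11 genes of fatty acid synthesis, desaturation, elongation and activation, and 4 LXR-type genes of sterol efflux and its control. In the table, 36 of the 38 had enough counts to be tested, as had 12266 of all genes. Hmgcs1, the enzyme that makes HMG-CoA, and Abca1, a transporter that loads cholesterol onto apolipoproteins, were listed at 0 counts in every library. Their level is therefore unknown here and they are not included in the counts of tested genes.

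The cells were Beko cells, a mouse progenitor T-cell (pre-T) line in which Notch signaling is constitutively active. In the GSI group they had been kept for 48 h with DAPT, a γ-secretase inhibitor (GSI) that blocks the cleavage releasing the active Notch intracellular domain. In the washout group they had been kept with the inhibitor for the same 48 h, washed and cultured for a further 24 h without it. Each group had 2 libraries, prepared from total RNA depleted of ribosomal RNA. All 4 libraries therefore come from 1 line that had been exposed to the inhibitor. The labels give the dose as 10 mg/ml, whereas the methods of the study give the same figure in micrograms. The washed cells were also older in culture by 24 h and were washed once more, so that these differences cannot be told apart from removal of the inhibitor. No library of cells washed alike without the inhibitor was analysed here. The labels do not say whether the 2 libraries of a group came from separate cultures, and the p-values then measure only the spread between these libraries, which may be technical.

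Sterol synthesis converts acetyl-CoA through mevalonate and squalene to cholesterol. When sterol in the endoplasmic reticulum is low, SCAP escorts the SREBP transcription factors to the Golgi, where they are cleaved and released to the nucleus, whereas INSIG proteins hold SCAP and SREBP back when sterol is plentiful. SREBP-2 mainly drives genes of sterol synthesis and SREBP-1 mainly those of fatty acid synthesis, and both bind sterol response elements, often beside a box bound by NF-Y. The liver X receptors (LXR) work in the opposite situation: they are activated by oxysterols and switch on genes that export cholesterol or limit its uptake. Proliferating T cells are known to raise lipid synthesis to build membranes.

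The depth was between 13716199 and 36364200 counts per library, and replicate 2 was the shallower library of both groups. The expression of known Notch target genes, used to check the labels, was higher upon washout for all 5 genes examined, with log2 fold changes of 1.42 for Hes1, 3.20 for Dtx1, 3.47 for Hey1, 3.19 for Il2ra and 2.37 for Ptcra. Hes1 was the least stable of these, at 0.92 without GSI replicate 2 and with an adjusted p of 0.0732 by DESeq2. The 10 T-cell markers were all above 3 counts in every library, and their summed level was between 4460 and 4660 CPM (counts scaled to library size). Single markers moved within that sum: Ptcra and Notch1 rose past both thresholds and Gata3 fell (log2 fold change -1.67), while Cd3g was higher and Tcf7, Bcl11b and Thy1 were lower by the adjusted p alone. For B cells, whose defining genes Pax5, Ebf1 and Ms4a1 were at 0, the sum of 6 markers was between 0.323 and 0.959 CPM. Sums of the 3 erythroid, 3 hepatocyte and 3 adipocyte markers reached at most 1.41, 0.0312 and 0.812 CPM. At these low levels the B-cell, erythroid and adipocyte sums were lower in both washout libraries than in both GSI libraries. Klf1 of the erythroid list fell past both thresholds (log2 fold change -1.18). Lists of myeloid and mast cell markers also moved with the groups, from higher levels, and are given below beside the genes that fell. The 2 libraries of a group differed by more than the sampling noise, with a chi-square per degree of freedom of 17.2 for GSI and 27.7 for washout, and were counted as 2 samples.

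Promoters of members are shown first because SREBP acts through short promoter motifs. RefSeq windows of the GRCm38.p6 build, from 250 bases before to 50 after a start, were at hand for 29 of the 38 genes, in 37 windows. There were none for Abcg1, Fads1, Fdft1, Fdps, Npc1, Scd1, Scd2, Sqle and Stard4. On either strand, the sterol response element core CACNCCAC occurred in 3 of the 37 windows (8.1%), those of Acat2, Hmgcs1 and Insig1, and in 6.2% of all 32851 windows. The NF-Y box CCAAT occurred in 23 of the 37 windows (62.2%), against 37.4% of all windows, and TGNGAA, the core of the motif of the Notch effector RBPJ, in 18 (48.6%) against 50.7%. Below are the 200 bases before the start of the 4 upregulated enzymes with a window and of Insig1, the SREBP target that retains SREBP in the endoplasmic reticulum. They run 5′ to 3′ along the gene, and capitals mark CACNCCAC and CCAAT or their complements.
Acat2 (chr17:12960726-12960925, minus strand): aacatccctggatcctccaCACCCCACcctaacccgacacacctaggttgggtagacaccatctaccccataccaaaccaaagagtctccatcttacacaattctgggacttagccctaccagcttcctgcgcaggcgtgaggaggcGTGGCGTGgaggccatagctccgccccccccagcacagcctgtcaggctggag
Idi1 (chr13:8885406-8885605, plus strand): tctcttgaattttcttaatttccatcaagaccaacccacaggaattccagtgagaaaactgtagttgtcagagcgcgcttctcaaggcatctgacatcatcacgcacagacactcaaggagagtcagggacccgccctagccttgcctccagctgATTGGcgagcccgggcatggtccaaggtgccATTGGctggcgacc
Lss (chr10:76531405-76531604, plus strand): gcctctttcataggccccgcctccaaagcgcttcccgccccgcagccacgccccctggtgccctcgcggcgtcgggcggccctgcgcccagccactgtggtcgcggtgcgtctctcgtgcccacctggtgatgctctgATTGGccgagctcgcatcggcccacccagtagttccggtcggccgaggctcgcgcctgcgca
Cyp51 (chr5:4104698-4104897, minus strand): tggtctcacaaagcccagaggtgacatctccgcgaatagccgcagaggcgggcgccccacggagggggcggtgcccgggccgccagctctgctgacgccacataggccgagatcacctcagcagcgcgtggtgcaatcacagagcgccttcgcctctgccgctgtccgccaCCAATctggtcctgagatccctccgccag
Insig1 (chr5:28071212-28071411, plus strand): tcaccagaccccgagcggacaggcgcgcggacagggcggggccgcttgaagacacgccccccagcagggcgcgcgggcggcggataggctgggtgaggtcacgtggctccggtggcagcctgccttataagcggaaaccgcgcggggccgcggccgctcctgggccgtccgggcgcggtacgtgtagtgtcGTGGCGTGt

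Acat2 held the core at 2 places, from -181 to -174 and, on the other strand, from -53 to -46, counted from the start. Idi1 held 2 NF-Y boxes, at -45 and -14, and Lss and Cyp51 held 1 each, at -62 and -29. In Insig1 the core lay from -9 to -2 on the other strand. The 2 fallen genes with a window, Acss2 and Mylip, both held an NF-Y box and neither held the core. TGNGAA is not marked in the printed stretches. Of the 4 risen genes with a window only Idi1 held it, at -245, -150 and -122. Mylip held it at -113 and Acss2 did not, beside 50.7% of all windows. A match of letters is a description and does not show that a factor binds there, and a window without these letters can hold other forms of the motif.

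Most enzymes of sterol synthesis were higher upon washout, from the first steps of the pathway to the steps after lanosterol. Of the 15 that were tested, 5 rose past both thresholds, which were an adjusted p below 0.05 and a log2 fold change above 1 (n = 2 libraries per group), and none fell past the corresponding ones. The background is that 7.74% of all tested genes rose and 11.7% fell by these thresholds. By the adjusted p alone, 10 of the 15 were higher and none was lower, beside 27.0% and 25.4% of all tested genes. The median log2 fold change of the 15 was 0.77, beside -0.01 for all tested genes. In 12 of the 15 both washout libraries lay above both GSI libraries, an order found for 38.2% of all tested genes, and in 1 both lay below, as for 39.1%.

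**Figure D1:**
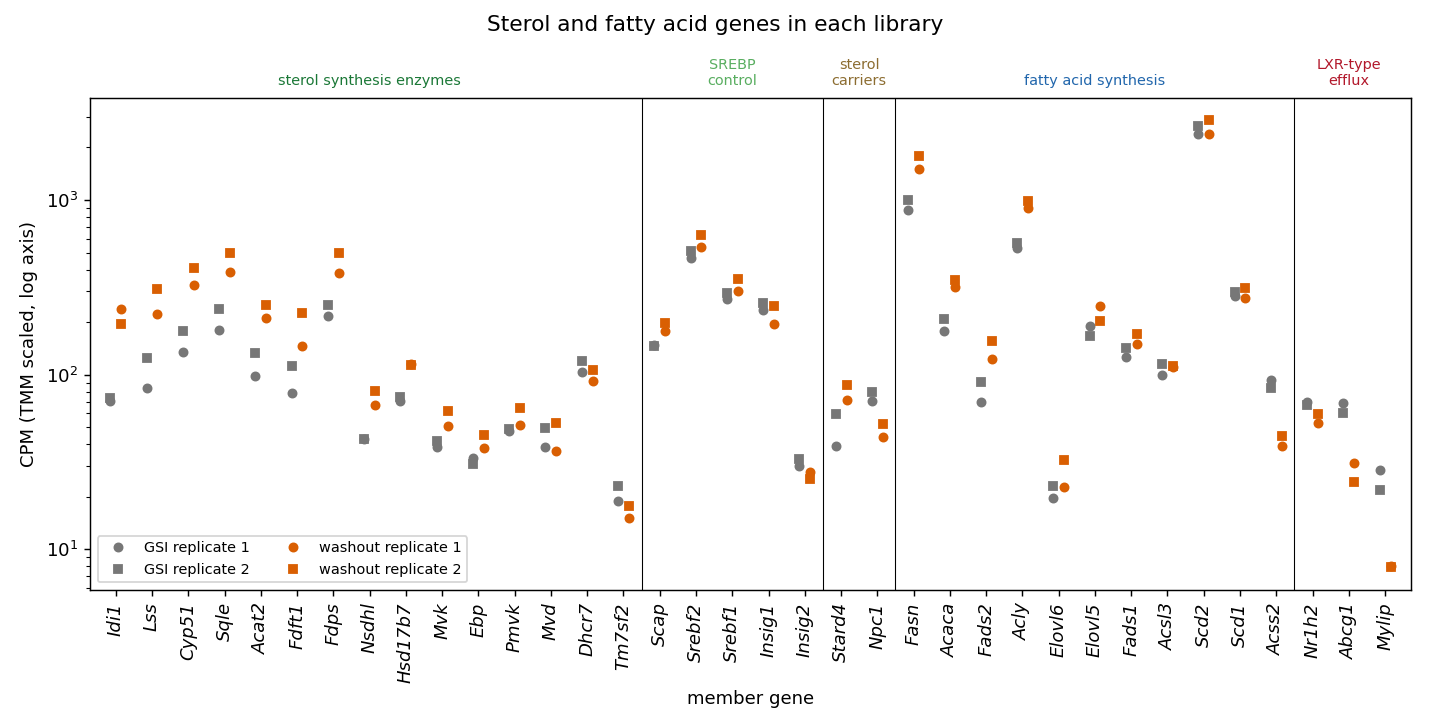
Level of each tested gene in CPM on a log axis, grouped by role, with 1 point for each of the 2 GSI and 2 washout libraries. For Idi1, Lss, Cyp51, Sqle and Acat2 both washout points lie above both GSI points, for Acss2, Abcg1 and Mylip they lie below, and for Scd1, Scd2, Mvd and Dhcr7 the groups overlap.

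Idi1 isomerizes isopentenyl diphosphate to dimethylallyl diphosphate, the unit on which prenyl chains start, and showed the largest rise of the 38 genes. It lies on chromosome 13 from 8884852 to 8891641 (mm9). Its level was 71.1 and 73.4 CPM in GSI libraries 1 and 2, and 238 and 195 CPM in washout libraries 1 and 2. The groups were far apart, with a 3.01-fold rise and a log2 fold change of 1.59 (SE 0.123, adjusted p = 0.000393). Washout replicate 1 was the higher library for Idi1, whereas it was the lower for the other 4 enzymes past both thresholds.

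Lss (chromosome 10, 75994333 to 76019883), which cyclizes oxidosqualene to lanosterol, was at 84.2 and 125 CPM with GSI and at 221 and 311 CPM upon washout. Both washout libraries were above both GSI libraries, with a log2 fold change of 1.35 (SE 0.235, adjusted p = 0.00434). Cyp51 (chromosome 5, 4081145 to 4104746), the demethylase that acts on lanosterol, was at 135 and 177 CPM with GSI and at 326 and 410 CPM upon washout. Here too the groups did not overlap, and the log2 fold change was 1.24 (SE 0.175, adjusted p = 0.00203). Sqle (chromosome 15, 59146632 to 59162747), the squalene epoxidase just before Lss, was at 180 and 239 CPM with GSI and at 387 and 500 CPM upon washout. Its rise of 1.08 on the log2 scale (SE 0.184, adjusted p = 0.00407) was close to the fold limit.

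Acat2 (chromosome 17, 13135756 to 13153613), the thiolase that makes acetoacetyl-CoA at the head of the pathway, was at 97.6 and 133 CPM with GSI and at 212 and 250 CPM upon washout. Its log2 fold change of 1.01 (SE 0.169, adjusted p = 0.00382) lay only just past the limit. Without GSI replicate 1, Acat2 came to 0.79 and Sqle to 0.88, and without washout replicate 2 they came to 0.90 and 0.90, all below the limit of 1. The rises of Idi1, Lss and Cyp51 stayed above it whichever library was left out.

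Another 5 enzymes were higher by the adjusted p but under the fold limit. Just under it were Fdft1, which joins farnesyl units to squalene, at 0.96 (SE 0.247, adjusted p = 0.0184), and Fdps, which makes farnesyl diphosphate, at 0.91 (SE 0.155, adjusted p = 0.00399). For Fdft1, 26.9% of the exon bases are shared with Ctsb on the other strand, and since the strand setting of the counting is not given in the sources used here, its counts are uncertain. Both passed the limit without GSI replicate 2, at 1.25 and 1.03, and without washout replicate 1, at 1.25 and 1.09. The remaining rises were 0.77 for Nsdhl and 0.65 for Hsd17b7, which help to remove the methyl groups of the sterol nucleus, and 0.49 for Mvk, the first of the mevalonate kinases. Without GSI replicate 1 the adjusted p was 0.0721 for Fdft1 and 0.115 for Mvk. In all 5, both washout libraries were above both GSI libraries, as in 38.2% of all tested genes.

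The other 5 enzymes did not pass the test. Ebp, the sterol isomerase, had a log2 fold change of 0.36 (SE 0.125, adjusted p = 0.0507), and Pmvk, the next mevalonate kinase, of 0.25 (SE 0.128, adjusted p = 0.143). Mvd, the decarboxylase that follows it, was at 38.4 and 49.3 CPM with GSI and at 36.6 and 52.9 CPM upon washout. These groups overlapped fully, and the log2 fold change was 0.02 (SE 0.205, adjusted p = 0.933). Dhcr7, which makes cholesterol from its last precursor, had a value of -0.17 (SE 0.120, adjusted p = 0.286). The lowest value was that of Tm7sf2, a sterol reductase, at 19.0 and 23.1 CPM with GSI and 15.04 and 17.8 CPM upon washout. Its libraries did not overlap, but its log2 fold change of -0.36 (SE 0.161, adjusted p = 0.106) did not pass the test. Without washout replicate 1, Ebp and Pmvk passed the test, at 0.49 and 0.42 (adjusted p = 0.0162 and 0.0227). Tm7sf2 shares 15.3% of its exon bases with another gene on the same strand.

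Of the 5 genes that control SREBP, none rose or fell past both thresholds, beside 7.74% and 11.7% of all tested genes. By the adjusted p alone 1 was higher and none was lower, beside 27.0% and 25.4%. Their median log2 fold change was 0.21, which came to 0.011 with the total count alone and to 0.51 with GC content and length corrected for. Scap, the escort of SREBP, was at 147 and 146 CPM with GSI and at 178 and 198 CPM upon washout, and was the only one past the adjusted p, at 0.36 (SE 0.0984, adjusted p = 0.0230). That call was lost without GSI replicate 1, without GSI replicate 2 or without washout replicate 2 (adjusted p = 0.117, 0.112 and 0.0675). Of its exon bases, 18.9% are shared with a gene on the other strand. Srebf2 was at 465 and 508 CPM with GSI and at 540 and 633 CPM upon washout, with a log2 fold change of 0.27 (SE 0.127, adjusted p = 0.122). Srebf1 was at 271 and 292 CPM with GSI and at 300.2 and 351 CPM upon washout, at 0.21 (SE 0.118, adjusted p = 0.179). Neither transcription factor passed the test. For both, the 2 washout libraries lay above the 2 GSI libraries, but so they did in 38.2% of all tested genes. With GC content and length corrected for, Srebf2 and Srebf1 came to 0.51 and 0.51 and passed the test (adjusted p = 0.00291 and 0.00192). The counts are of RNA, and say nothing of the cleavage by which SREBP proteins are activated.

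Insig1 and Insig2 encode the proteins that retain SCAP and SREBP. Insig1, whose promoter is printed above, was at 234 and 257 CPM with GSI and at 196 and 248 CPM upon washout, and the groups overlapped (log2 fold change -0.14, SE 0.138, adjusted p = 0.416). Insig2 was at 29.99 and 33.0 CPM with GSI and at 27.8 and 25.4 CPM upon washout (log2 fold change -0.24, SE 0.118, adjusted p = 0.137). Neither passed the test, but with GC content and length corrected for Insig2 passed it as lower, at -0.42 (adjusted p = 0.0162).

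The 2 sterol carriers moved in opposite directions, both under the fold limit. Stard4, which moves cholesterol between membranes, was at 39.2 and 59.7 CPM with GSI and at 71.4 and 87.0 CPM upon washout, and rose by 0.69 (SE 0.209, adjusted p = 0.0333). Without GSI replicate 1 its value was 0.40 (adjusted p = 0.120), and without GSI replicate 2 it was 1.023. Npc1, which lets cholesterol out of lysosomes, was at 70.3 and 79.3 CPM with GSI and at 43.8 and 52.1 CPM upon washout. It fell by 0.64 on the log2 scale (SE 0.124, adjusted p = 0.00638). Neither gene overlapped between groups, but both washout libraries lay above in 38.2% of all tested genes and below in 39.1%. Counting the enzymes, the control genes and Stard4 together as SREBP-type genes, 5 of 21 tested rose past both thresholds and none fell, beside 7.74% and 11.7% of all tested genes. By the adjusted p alone 12 of these 21 were higher, beside 27.0%. This grouping leaves out Npc1, which was lower, and the 11 genes of fatty acid synthesis, of which none rose and 1 fell past both thresholds. Over all 36 tested genes of the 38, 5 rose and 3 fell.

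**Figure D2:**
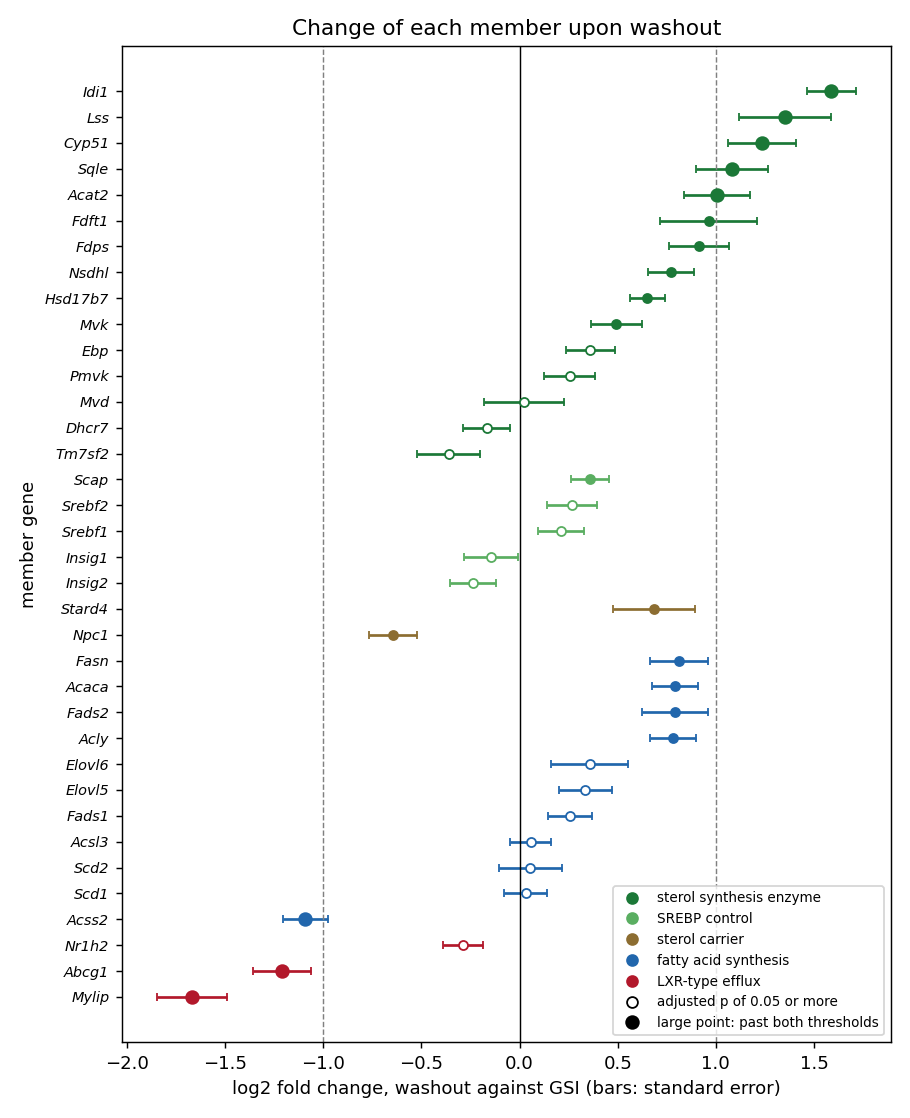
Log2 fold change of each tested gene, washout against GSI, with bars for the standard error, colored by role, with open points for an adjusted p of 0.05 or more and large points for genes past both thresholds. The sterol enzymes run from -0.36 (Tm7sf2) to 1.59 (Idi1), the fatty acid genes from -1.09 (Acss2) to 0.81 (Fasn), and the 3 LXR-type genes are all below 0.

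In fatty acid synthesis, Acly, Acaca and Fasn, the enzymes from citrate to palmitate, were higher upon washout by less than the fold limit. The stearoyl-CoA desaturases did not pass the test. None of the 11 genes rose past both thresholds and 1 fell, beside 7.74% and 11.7% of all tested genes. By the adjusted p alone 4 were higher and 1 was lower, beside 27.0% and 25.4%. For a list of 11 genes, these counts are near what the shares over all tested genes would give. The median log2 fold change was 0.34. The 4 that were higher had similar values. Acly, which makes acetyl-CoA from citrate, was at 533 and 566 CPM with GSI and at 906 and 986 CPM upon washout (log2 fold change 0.78, SE 0.118, adjusted p = 0.00253). Acaca, the carboxylase of the committed step, rose by 0.79 (SE 0.119, adjusted p = 0.00256).

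Fasn, the fatty acid synthase, was at 873 and 1000 CPM with GSI and at 1514 and 1777 CPM upon washout, and its value of 0.81 (SE 0.148, adjusted p = 0.00517) was the largest rise of the 11. Without GSI replicate 1 its adjusted p was 0.0501. Fads2, a front-end desaturase of polyunsaturated fatty acids, was at 70.0 and 90.5 CPM with GSI and at 123 and 155 CPM upon washout (log2 fold change 0.79, SE 0.167, adjusted p = 0.00903). In all these 4, both washout libraries were above both GSI libraries, as in 38.2% of all tested genes.

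Acss2 was the exception. It encodes the enzyme that makes acetyl-CoA from free acetate in the cytosol and nucleus, a route beside that of Acly (chromosome 2, 155343684 to 155411460). It was at 93.3 and 83.9 CPM with GSI and at 38.9 and 44.6 CPM upon washout. Both washout libraries were well below both GSI libraries, at 0.469 times their level (log2 fold change -1.09, SE 0.114, adjusted p = 0.000778). Without washout replicate 1 its value was -0.99, and with GC content and length corrected for -0.79, both inside the fold limit, while the correction took Fasn past it at 1.29.

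Scd2, the desaturase that makes monounsaturated fatty acids, had the highest level per exon length of the 36 tested genes, at a mean of 471 CPM per kilobase. It was at 2387 and 2655 CPM with GSI and at 2373 and 2866 CPM upon washout, and Scd1 was at 283 and 295 CPM with GSI and at 276 and 315 CPM upon washout. For both, the washout libraries enclosed the GSI libraries, and the log2 fold changes were 0.06 (SE 0.162, adjusted p = 0.795) and 0.03 (SE 0.110, adjusted p = 0.834). Elovl5 and Elovl6, which lengthen fatty acids, had values of 0.34 (SE 0.134, adjusted p = 0.0772) and 0.36 (SE 0.196, adjusted p = 0.172). Elovl5 was at 190 and 167 CPM with GSI and at 248 and 202 CPM upon washout. Elovl6 was the lowest of the 36 per exon length, at 4.13 CPM per kilobase. It has 3 introns over the 3000 bases allowed in mapping and Scd2 has 0, so that these 2 levels are not strictly comparable. Elovl6 was at 19.8 and 23.2 CPM with GSI and at 22.7 and 32.6 CPM upon washout, so that its groups overlapped. Without washout replicate 1 Elovl6 passed the test at 0.61 (adjusted p = 0.0127), as did Elovl5 without washout replicate 2 at 0.49 (adjusted p = 0.0122). Fads1, the partner of Fads2, was at 126 and 142 CPM with GSI and at 150 and 170 CPM upon washout (log2 fold change 0.26, SE 0.113, adjusted p = 0.101). For Acsl3, which activates fatty acids, the value was 0.06 (SE 0.103, adjusted p = 0.668).

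The balance between related genes was compared within each library, where it does not depend on the scaling. For Fads1 against Fads2 the mean log2 ratio of counts was 0.75 with GSI and 0.21 upon washout, a difference of -0.53. Neither that nor the difference of -0.06 for Srebf1 against Srebf2 could pass a threshold, since 4 libraries allow only 6 arrangements and the smallest possible p of the two-sided exact permutation test is 0.333, which both reached (0.832 adjusted over 5 pairs). For Insig1 against Insig2, Scd1 against Scd2 and Elovl6 against Elovl5 the differences were 0.09, -0.02 and 0.02, and the SD of replicates within groups was larger than these, at 0.24, 0.060 and 0.46 (exact p of 1, 0.667 and 1). Abca1 against Abcg1 gave no ratio because Abca1 was listed at 0.

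Among the LXR-type genes of sterol efflux, Mylip and Abcg1 fell upon washout. Of the 3 that were tested, these 2 fell past both thresholds and none rose, beside the background of 11.7% falling. All 3 had both washout libraries below both GSI libraries, an order found for 39.1% of all tested genes. The median log2 fold change was -1.21. Mylip, the ubiquitin ligase that targets lipoprotein receptors for degradation (chromosome 13, 45485111 to 45507388), was at 28.6 and 21.7 CPM with GSI and at 7.99 and 7.88 CPM upon washout. It fell by 1.67 on the log2 scale (SE 0.178, adjusted p = 0.000806), the largest fall of the 38 genes. Abcg1, a transporter that moves cholesterol out to lipoproteins (chromosome 17, 31194643 to 31252722), was at 68.5 and 60.4 CPM with GSI and at 31.1 and 24.2 CPM upon washout. It fell to 0.432 times its GSI level (log2 fold change -1.21, SE 0.147, adjusted p = 0.00121). Nr1h2, which encodes LXRβ itself, was at 69.9 and 67.0 CPM with GSI and at 53.1 and 59.4 CPM upon washout. Its value of -0.29 (SE 0.101, adjusted p = 0.0519) missed the threshold. With 1 library left out the value was between -0.35 and -0.20. With GC content and length corrected for, it came to -0.071 and again missed the threshold. In 4 of 14 alternative settings Nr1h2 did pass the adjusted p as lower. With at least 10 counts in every library, for example, it came to -0.33 (adjusted p = 0.0347).

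Summed levels of myeloid and mast cell markers were lower in the same libraries as these genes. The summed level of 4 genes listed as mast cell markers was 274 and 167 CPM with GSI and 45.7 and 30.5 CPM upon washout. Of the 4, Cpa3 and Kit were above 3 counts in every library, while Fcer1a and Mcpt8 were at 0. For 6 myeloid markers the sums were 49.1 and 38.2 CPM with GSI and 5.49 and 4.91 CPM upon washout, only Itgam was above 3 counts in every library, and Elane and Lyz2 were at 0. Their part in the fall of Mylip, Abcg1, Npc1 and Acss2 was not tested. In bulk RNA, fewer cells of a type and less RNA per cell cannot be told apart.

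The 8 genes past both thresholds differed in how far they depended on the processing. Idi1 and Mylip kept their calls in all 14 alternative settings, and Lss, Cyp51 and Abcg1 in 13, the exception being a test against the fold limit itself. Of the others, Sqle and Acss2 kept theirs in 10 and Acat2 in 6. All 8 kept their sign in each of the 14.

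**Figure D3:**
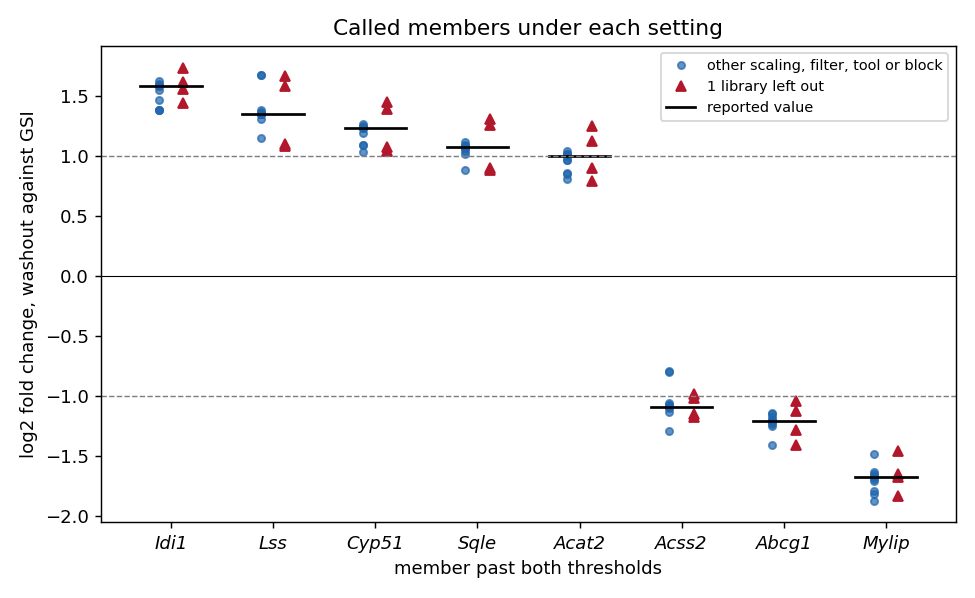
Log2 fold change of the 8 genes past both thresholds under the alternative settings, with circles for another scaling, filter, tool or block, triangles for fits without 1 library and a black line for the reported value. Acat2, Sqle and Acss2 come inside a log2 fold change of 1 or -1 under some settings, while Idi1 and Mylip stay well outside.

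Further genes of the same pathways, listed by role, were read in the same fit. Of 7 other sterol genes, 1 rose past both thresholds and 1 fell, beside 7.74% and 11.7% of all tested genes. Their median log2 fold change was 0.19. Msmo1, a methylsterol oxidase, was at 61.6 and 92.4 CPM with GSI and at 136 and 178 CPM upon washout, and rose by 1.03 (SE 0.217, adjusted p = 0.00889). Its call was lost without GSI replicate 1 (0.76), without washout replicate 2 (0.85), with the total count alone (0.83), with at least 10 counts in every library, with thinned counts and by glmTreat. Soat1, which esterifies cholesterol for storage, was at 766 and 727 CPM with GSI and at 238 and 181 CPM upon washout. It fell by 1.83 on the log2 scale (SE 0.158, adjusted p = 0.000467), further than any of the 38 genes.

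Of 12 tested genes among 14 others of fatty acid metabolism, none rose past both thresholds and 1 fell, while 4 were higher and 2 lower by the adjusted p alone (all tested genes: 7.74% and 11.7%, and 27.0% and 25.4%). The fallen gene was Acacb, the carboxylase whose product restrains fatty acid import into mitochondria, at 27.0 and 26.0 CPM with GSI and at 10.4 and 9.59 CPM upon washout (log2 fold change -1.40, SE 0.131, adjusted p = 0.000580). With GC content and length corrected for it came to -0.94, inside the fold limit. Acsl5, which activates fatty acids, was the highest at 0.99 (SE 0.0961, adjusted p = 0.000641), and passed the fold limit by DESeq2, with no filter, without GSI replicate 2 and without washout replicate 1, at values up to 1.05. Among 9 LXR partners and targets, of which 8 were tested, none rose and 1 fell past both thresholds, near the 11.7% of all tested genes that fell, and the median was -0.38. The fallen gene was Pltp, a phospholipid transfer protein, at 8.40 and 9.18 CPM with GSI and at 4.79 and 3.57 CPM upon washout (-1.04, SE 0.225, adjusted p = 0.00983). Its call was lost without GSI replicate 2 (-0.97), without washout replicate 2 (-0.86), by glmTreat, and with GC content and length corrected for (-0.91). Lpcat3, a target that remodels phospholipids, was the highest at 0.06 (SE 0.0966, adjusted p = 0.615).

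**Figure D4:**
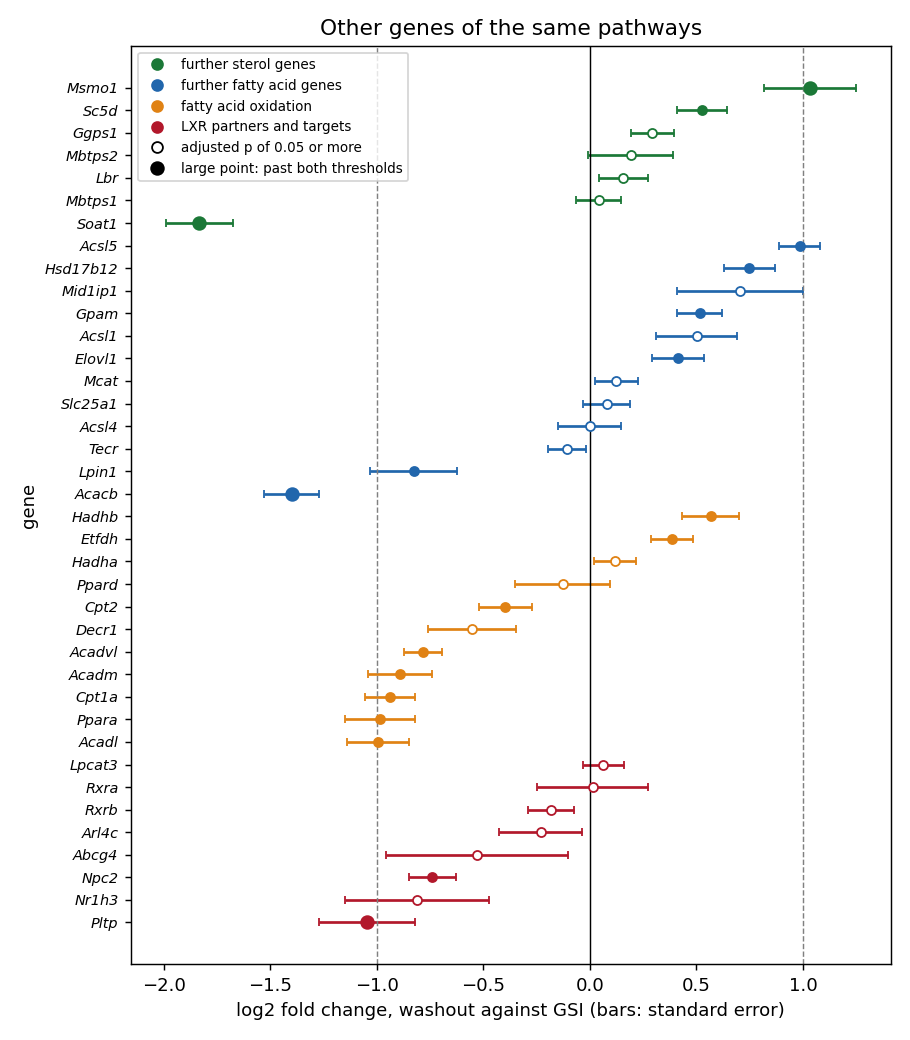
Log2 fold change, washout against GSI, of genes of the same pathways that are not among the 38, colored by list, with bars for the standard error, open points for an adjusted p of 0.05 or more and large points for genes past both thresholds. Soat1 lies lowest at -1.83 and Msmo1 highest at 1.03, and most genes of fatty acid oxidation lie below 0.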

How the data were processed

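RNA-Seq of 4 Beko libraries was analysed, 2 of cells treated with GSI for 48 h and 2 of cells given 24 h of culture once it was washed out. After trimming with trimGalore, the authors mapped the reads on mm9 by HISAT2 2.2.1, allowing introns of up to 3000 bases, and deposited raw counts per gene from summarizeOverlaps with an iGenomes annotation. The strand setting and the overlap mode are not given in the sources used here. Of the 38 genes, 30 have a longer intron, and reads spliced across one would not align as such. All value columns were used, and conditions came from the labels.

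Counts were fitted over all 12266 genes kept by filterByExpr, with edgeR 4.0.16 in R 4.3.3 (TMM factors, estimateDisp, a quasi-likelihood test with no covariate). Adjustment of p followed Benjamini-Hochberg over these genes. Thresholds were those of the study, an adjusted p below 0.05 together with a log2 fold change over 1 in either direction. CPM are scaled by TMM. The standard error is |log2 fold change| over √F. The biological coefficient of variation was 0.121, and 3 counts correspond to between 0.0881 and 0.223 CPM. Log2 ratios of pairs had 0.5 counts added to each gene and were compared by an exact permutation test. The scripts were tested on simulated data.

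Positions and exon lengths came from GENCODE vM1 on mm9, where 37 of the 38 genes matched a single gene (Hmgcs1 did not). Promoter windows came from RefSeq on GRCm38.p6 and were not set against mm9 positions. The 38 genes and all lists were chosen with earlier results of these data known. Given in full were genes past both thresholds, the largest rise and fall of each role and both genes of a pair. By that rule only the Acat2 promoter is printed, and the other 4 were added after values and motifs were seen, as were values of genes outside the rule. The result of 1 gene of the further lists is left out. Alternatives were DESeq2 1.42.0, RLE factors or total count alone, a filter of 1 count in all, a minimum of 10 counts per library, the replicate block, thinning to the smallest library, glmTreat, the adjusted p alone, offsets for the trends with GC content and exon length (10455 genes, 85.2% of those tested) with and without the block, 1 count added in pair ratios, and leaving out each library.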

Additional observations from a re-analysis of the deposited data

How the results depend on the processing

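The 36 tested genes kept the sign of their change with RLE factors, DESeq2, no filter and the replicate block, and all 8 calls were kept in each. With the total count alone, which moves the median of all genes to -0.21, 587 genes rose and 1961 fell in place of 950 and 1437, 3 sterol enzymes rose, the medians of sterol and fatty acid genes were 0.57 and 0.14, and Acsl3, Mvd, Scd1, Scd2 and Lpcat3 turned negative (-0.14, -0.18, -0.17, -0.14 and -0.14). Dhcr7, Insig2, Nr1h2 and Tm7sf2 then passed the adjusted p as lower, and Mvk, Scap and Stard4 no longer passed it. With at least 10 counts in every library Mvd came to -0.015 and Scd1 to -0.0076, and thinned counts gave -0.0020 for Mvd. By glmTreat 308 genes rose and 501 fell, with 1 sterol enzyme, 0 fatty acid genes and 1 LXR-type gene. The correction for GC content and length gave 1 risen fatty acid gene (Fasn) and 0 fallen, Acsl3 at -0.12 and Scd1 at -0.070, and with the replicate block -0.12 and -0.076, where Insig1 and Insig2 passed as lower (-0.35 and -0.40). By the adjusted p alone 3315 genes were higher and 3120 lower, with 10 sterol enzymes and 4 fatty acid genes higher.

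Leaving out 1 library leaves a lone library in its group, assumed to vary like the others. Risen sterol enzymes then numbered 3 to 7 and fallen fatty acid genes 0 to 1, and the fatty acid median was 0.18 to 0.36. Log2 fold changes ran from -0.047 to 0.17 for Acsl3, -0.31 to 0.024 for Insig1, -0.24 to 0.28 for Mvd, -0.053 to 0.13 for Scd1 and -0.071 to 0.19 for Scd2, and pair differences from -0.39 to 0.42 (Elovl6 and Elovl5), -0.14 to 0.33 (Insig1 and Insig2) and -0.068 to 0.022 (Scd1 and Scd2). Same-numbered libraries deviated together over genes (correlation 0.497). The labels name no shared batch and there are only 2 pairs, so what these libraries share beyond a number is not known. With the replicate block, 981 genes rose and 1576 fell, the same 5 sterol enzymes rose, and Ebp, Pmvk, Tm7sf2, Srebf1, Srebf2, Elovl5, Elovl6, Fads1 and Nr1h2 also had an adjusted p below 0.05. That fit leaves only 1 residual degree of freedom. The share of all tested genes below 0.05 in it is not given here, so these added passes do not set the named genes apart. With 2 libraries per group every estimate is imprecise. The cause of each shift was not tested.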

Other observations

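Genes of fatty acid oxidation, which break fatty acids down in mitochondria, were mostly lower upon washout. That was opposite to Acly, Acaca and Fasn, but Acss2 and Acacb also fell (log2 fold changes -1.09 and -1.40). Of 11 oxidation genes tested, none passed both thresholds. By the adjusted p of edgeR's quasi-likelihood test alone, 6 were lower and 2 were higher, beside 25.4% and 27.0% of all tested genes. Their median log2 fold change was -0.55. Cpt1a, which controls entry of fatty acids into mitochondria, was at 374 and 345 CPM with GSI and at 202 and 173 CPM upon washout. Its groups were well apart, and it fell by 0.94 on the log2 scale (SE 0.118, adjusted p = 0.00136). Acadl, a dehydrogenase of long-chain acyl-CoA, had the lowest value of the list at -0.99 (SE 0.145, adjusted p = 0.00225), just inside the fold limit. It passed both thresholds in 8 of 14 alternative settings, among them the total count alone (-1.19), the corrected GC content and length (-1.28), and the fits without GSI replicate 2 (-1.10) and without washout replicate 1 (-1.08). Ppara, a receptor that drives oxidation genes, fell by 0.98 (SE 0.164, adjusted p = 0.00374), and Acadm, Acadvl and Cpt2 fell by 0.89, 0.78 and 0.40. Hadhb, a subunit of the trifunctional protein, was the highest at 0.57 (SE 0.134, adjusted p = 0.0140; 0.0700 without GSI replicate 2), and Etfdh, which passes electrons on to ubiquinone, rose by 0.39.

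Within both groups, replicate 2 was above replicate 1 for most of the lipid genes. This held in both groups at once for 12 of the 15 sterol enzymes (80.0%) and 9 of the 11 fatty acid genes (81.8%), but for 0 of the 3 LXR-type genes, beside 33.1% of all tested genes. The median difference of replicate 2 from replicate 1 in the sterol enzymes was 0.21 on the log2 scale with GSI and 0.29 upon washout, beside a median rise of 0.77 upon washout. Its relation to depth, to the day of culture or to the growth of the cells was not tested.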
